A study of Mus musculus with 2 samples.

Results

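The Gimap genes encode GTPases of the immunity-associated protein family, and their levels were followed in total RNA from mouse hematopoietic stem cells. The members are Gimap1, Gimap3, Gimap4, Gimap5, Gimap6, Gimap7, Gimap8 and Gimap9. All 8 were matched by symbol to the Ensembl identifiers of the gene tables, which hold 43346 mouse genes, 21461 of them nuclear protein coding genes. The members were chosen by name with their levels, transcript shares and replicate differences in these libraries already known, so the values are a description and carry no test. The study made 2 libraries, numbered replicate 1 and replicate 2 in the labels, each from 100 hematopoietic stem cells of adult male C57BL/6J mice aged 5 to 6 weeks. Both carry the same donor identifier under different biosample identifiers, so their spread may be technical, and no other condition was compared. The sources used here do not give the gate. Of 12 stem cell markers, 11 were detected in both libraries (TPM no lower than 1, with 10 or more expected counts). Hlf was at 161.7 and 98.0 TPM, Kit at 107.5 and 117 TPM, Cd34 at 98.1 and 78.1 TPM and Meis1 at 86.7 and 60.2 TPM in replicates 1 and 2, and Slamf1 missed detection in replicate 2.

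GIMAP proteins bind GTP through a domain related to that of the septins and sit on membranes of mitochondria, the endoplasmic reticulum, lysosomes and other organelles. They are best known from lymphocytes, where they keep resting T and B cells alive, and in mice the loss of Gimap5 causes lymphopenia and impairs blood stem cells. Each gene is small, and in mammals they lie side by side in a single cluster.

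In the mouse the cluster spans 123.6 kb of chromosome 6, from 48647234 to 48770851 (mm10, the same build as GRCm38, GENCODE M21). Its order is Gimap8, Gimap9, Gimap4, Gimap6, Gimap7, Gimap1, Gimap5 and Gimap3, and 6 genes lie on the plus strand while Gimap6 and Gimap3 lie on the minus strand. Gimap7 and Gimap9 carry all of their coding sequence in a single exon, and Gimap1, Gimap3, Gimap4 and Gimap5 carry 94.1% to 96.9% of it in their largest coding exon. In Gimap6 that share was 69.7%, and in Gimap8, whose protein holds several GTPase domains in a row, it was 31.9%. The longest annotated coding length is 2064 bases in Gimap8, and 873 bases (Gimap9) to 984 bases (Gimap4) in the others.

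Start sites of 4 members are shown because these genes stand for the patterns described next. Gimap6 was high and nearly even between the libraries, Gimap4 and Gimap3 were higher in replicate 1, and Gimap9 was higher in replicate 2. The sequences are RefSeq promoter windows (GRCm38.p6) of 300 bases, with 250 bases before and 50 bases after the gene's start, written 5′ to 3′ on the gene's strand. They come from chr6:48708195-48708494 (minus strand, Gimap6), chr6:48684328-48684627 (plus strand, Gimap4), chr6:48770802-48771101 (minus strand, Gimap3) and chr6:48675885-48676184 (plus strand, Gimap9). Capitals mark matches on either strand to any of 7 short motifs (Ets, Runx, Gata, Ikaros, E-box, Myb and TATA box), whose letters are spelled out after the sequences.
Gimap6: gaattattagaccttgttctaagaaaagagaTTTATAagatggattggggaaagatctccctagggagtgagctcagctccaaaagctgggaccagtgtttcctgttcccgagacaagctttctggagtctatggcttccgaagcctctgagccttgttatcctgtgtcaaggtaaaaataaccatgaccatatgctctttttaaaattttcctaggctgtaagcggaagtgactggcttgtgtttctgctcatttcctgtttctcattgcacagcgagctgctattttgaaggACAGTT
Gimap4: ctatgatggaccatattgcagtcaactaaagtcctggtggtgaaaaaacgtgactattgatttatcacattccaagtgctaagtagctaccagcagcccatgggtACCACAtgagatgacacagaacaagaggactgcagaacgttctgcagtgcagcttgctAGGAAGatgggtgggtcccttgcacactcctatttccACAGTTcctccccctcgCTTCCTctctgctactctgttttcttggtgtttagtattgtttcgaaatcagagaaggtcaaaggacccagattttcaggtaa
Gimap3: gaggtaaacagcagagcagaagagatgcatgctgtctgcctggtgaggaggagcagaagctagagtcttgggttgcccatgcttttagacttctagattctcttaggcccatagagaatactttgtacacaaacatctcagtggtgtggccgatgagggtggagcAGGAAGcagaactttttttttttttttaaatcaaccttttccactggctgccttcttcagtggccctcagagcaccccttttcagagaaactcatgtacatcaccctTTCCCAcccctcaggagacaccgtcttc
Gimap9: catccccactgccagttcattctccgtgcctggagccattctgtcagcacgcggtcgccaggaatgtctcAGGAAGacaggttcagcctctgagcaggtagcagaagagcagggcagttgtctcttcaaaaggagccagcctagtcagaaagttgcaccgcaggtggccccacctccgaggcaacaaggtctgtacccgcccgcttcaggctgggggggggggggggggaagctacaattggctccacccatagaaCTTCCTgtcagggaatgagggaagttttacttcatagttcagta

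All 8 members matched the RefSeq table, with 9 windows because Gimap8 has a second start. The Ets letters, AGGAAG, lay in a window of 7 members, Gimap6 being the one without them, and in 35.4% of all 32851 promoter windows of that length. The Runx letters, TGTGGT, lay in the windows of 3 members (Gimap4, Gimap7 and Gimap1), against 16.8% of all windows. The Myb letters, AACNGT with any base at N, lay in 4 (Gimap4, Gimap6, Gimap7 and Gimap5), against 26.1%. Of the 8 members, only Gimap6 had the TATA box letters, TATAAA, which 13.6% of all windows held. That match is on the opposite strand, near the 5′ end of the window and far from the gene's start. Only Gimap3 had the Ikaros letters, TGGGAA, which 25.6% of all windows held. The Gata letters, AGATAA, were in none of the 9, against 11.2% of all windows. The same was true of the E-box letters, CAGCTG, against 16.3% of all windows. In the windows shown, the Gimap4 and Gimap9 starts each have 2 Ets matches and the Gimap3 start has 1. The member windows held 2 to 8 CG dinucleotides, with a median of 4, where the median over all windows was 7. A match of letters is a description of the sequence, and matches to different motifs can overlap.

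Most of the family was expressed in these pools, with Gimap6 the highest member in each. Of the 8 members, 5 were detected in both libraries (Gimap8, Gimap4, Gimap6, Gimap1 and Gimap5), where 45.5% of nuclear protein coding genes and 24.7% of all genes were. Replicate 1 had 7 members detected and replicate 2 had 6, counts with no single-library share over coding genes to set beside them. Of 21461 nuclear protein coding genes, 10462 and 8288 were without counts in replicates 1 and 2. TPM is transcript abundance corrected for length and scaled to a fixed total per library, so members can be compared with each other on it. The TPM of the family summed to 148 in replicate 1 and 89.5 in replicate 2 (119 ± 41.1, mean ± SD, n = 2 libraries). The underlying expected counts summed to 7242 and 2306 of 48307557 and 28945011. In bulk RNA, fewer cells of a type and less RNA per cell cannot be told apart.

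**Figure D1:**
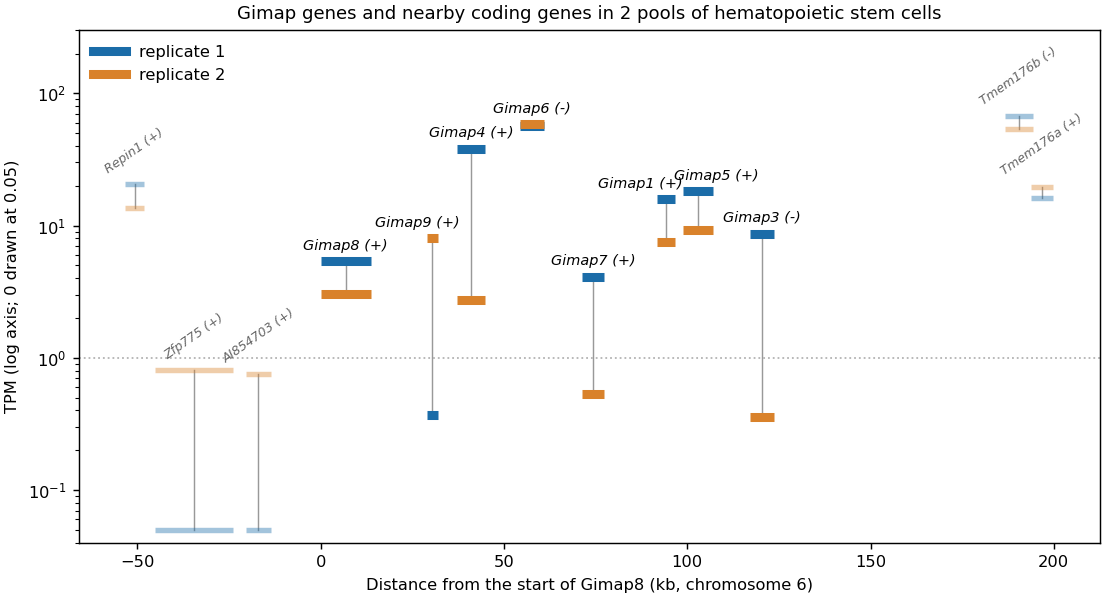
TPM of each Gimap gene and of the nearby coding genes that had counts (pale) in replicate 1 and replicate 2, drawn as bars over the gene's extent at its distance in kb from the start of Gimap8, with strand in brackets and 0 drawn at 0.05 TPM on the log axis, whose dotted line marks 1 TPM. Gimap6 sits at 56.9 and 58.2 TPM, and the bars of Gimap9, Gimap4, Gimap7 and Gimap3 lie far apart.

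Gimap6, known to bind the autophagy protein GABARAPL2, was the highest member in both libraries. Its level was 56.9 TPM (3387 expected counts) in replicate 1 and 58.2 TPM (1512 expected counts) in replicate 2, a mean of 57.5 ± 0.90 (SD, n = 2). Those levels rank it 1054th and 807th among 21461 nuclear protein coding genes, within the top 4.91% and 3.76%. It held 38.5% of the summed Gimap TPM in replicate 1 and 64.9% in replicate 2. Without it the other members summed to 90.7 and 31.4 TPM. In TPM the whole difference in the family total thus lay outside Gimap6, which was slightly higher in replicate 2. The 5 nuclear protein coding genes nearest to it in log2(TPM + 1) over the 2 libraries were Naa15, Tlk1, Hdac1, Asap1 and Trrap, at distances of 0.014 to 0.040, and likeness over 2 libraries rests on level alone.

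Gimap5 and Gimap1 followed as a pair of moderately expressed neighbours. Gimap5, a lysosomal family member whose loss in mice depletes T cells, had 18.2 TPM and 723 counts in replicate 1, and 9.23 TPM and 219 counts in replicate 2 (13.7 ± 6.37 TPM). Gimap1, which mouse T and B cells need to survive, was at 15.8 and 7.46 TPM (11.6 ± 5.87) from counts of 693 and 146.8. Gimap5 lay above Gimap1 in both libraries, but by less than the spread of either, and the posterior intervals deposited by the authors overlapped in each library (15.8 to 19.8 against 14.5 to 16.9 TPM in replicate 1, 7.72 to 10.7 against 6.16 to 9.26 TPM in replicate 2). Gimap8, the long member with repeated GTPase domains, was at 5.39 and 3.06 TPM (4.23 ± 1.65) from counts of 611 and 196. These 3 genes were all higher in replicate 1, at TPM ratios of 1.98 for Gimap5, 2.11 for Gimap1 and 1.76 for Gimap8. The 95% exact intervals of those ratios, which cover counting error of reads only, ran from 1.70 to 2.31, from 1.77 to 2.54 and from 1.50 to 2.08.

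The remaining 4 members differed most between the pools. Gimap4, which speeds cell death in mouse T cells, had 38.2 TPM and 1443 counts in replicate 1, but 2.76 TPM and 49 counts in replicate 2 (20.5 ± 25.0 TPM). It was the member of second highest level in replicate 1, and it ranked behind Gimap6, Gimap5, Gimap9, Gimap1 and Gimap8 in replicate 2. Gimap3, a membrane protein that in mice influences which mitochondrial DNA is kept in blood cells, was at 8.71 and 0.36 TPM (4.54 ± 5.90) from counts of 219 and 5. Gimap7 was at 4.10 and 0.53 TPM (2.32 ± 2.52) from counts of 151 and 11. Gimap9 went the other way, with 0.37 TPM and 15 counts in replicate 1, but 7.99 TPM and 167 counts in replicate 2 (4.18 ± 5.39 TPM). Gimap4 thus stood 13.8-fold higher in replicate 1 (exact counting interval 10.4 to 18.8), Gimap3 24.2-fold (10.2 to 75.3) and Gimap7 7.74-fold (4.20 to 15.8), and Gimap9 21.6-fold higher in replicate 2 (12.7 to 39.5). None of these intervals holds equal levels, but they treat reads as independent and may be too narrow. With 1 library on each side there is no replicate check on any of these differences.

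By mean TPM the order was Gimap6, Gimap4, Gimap5, Gimap1, Gimap3, Gimap8, Gimap9 and Gimap7. Gimap6 stood above every other member in both libraries, while most neighbours further down that order differed in mean by less than their spread. The exception was Gimap1 over Gimap3, which differed by more than the SD of either and in the same direction in both libraries. Replicate 1 ran Gimap6, Gimap4, Gimap5, Gimap1, Gimap3, Gimap8, Gimap7, Gimap9, and replicate 2 ran Gimap6, Gimap5, Gimap9, Gimap1, Gimap8, Gimap4, Gimap7, Gimap3. Gimap6, Gimap5 and Gimap1 were thus among the upper 4 members in both pools, whereas the places of Gimap4, Gimap9 and Gimap3 changed.

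**Figure D2:**
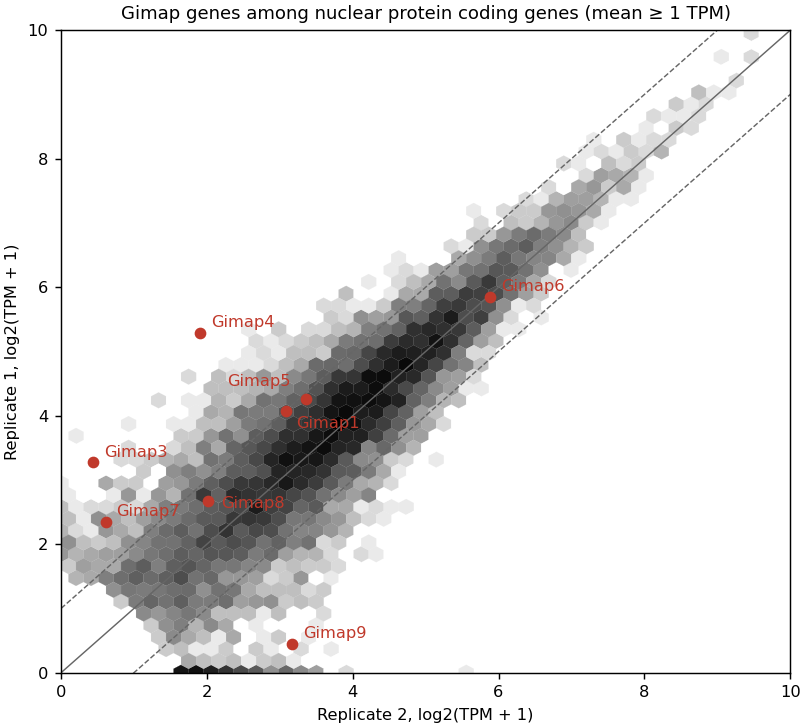
Gimap genes (red) among 10674 nuclear protein coding genes with a mean of at least 1 TPM (grey hexagons, darker where more genes fall), with replicate 2 on the horizontal and replicate 1 on the vertical axis in log2(TPM + 1), equality as a solid line and 2-fold differences dashed, and both axes ending at 10. Gimap4, Gimap3 and Gimap7 lie above the upper dashed line, Gimap9 lies below the lower one, and Gimap6 lies on the line of equality.

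On the log2(TPM + 1) scale, which understates the differences of low genes, replicate 1 minus replicate 2 was 3.38 for Gimap4, 2.84 for Gimap3, 1.74 for Gimap7, 0.99 for Gimap1, 0.91 for Gimap5, 0.65 for Gimap8, -0.03 for Gimap6 and -2.71 for Gimap9. More than 2-fold higher in replicate 1 were 3 of 8 members, where 11.3% of the 10674 coding genes were, and more than 2-fold higher in replicate 2 was 1 of 8, where 9.62% were. At over 4-fold the members were 2 (Gimap4 and Gimap3) and 1 (Gimap9), against 1.85% and 2.87% of those genes. Among coding genes with a mean of 1 to 10 TPM, the range that holds Gimap3, Gimap7, Gimap8 and Gimap9, 30.7% were over 2-fold apart in either direction, and at 10 to 100 TPM, the range of Gimap4, Gimap6, Gimap1 and Gimap5, 13.9% were. Since the members were chosen with these differences known, nothing is read from their counts. The median difference was 0.95 over the 8 members and 0.11 over the coding genes. Gimap6 turned from slightly lower to slightly higher in replicate 1 with the scaling, between -0.21 (TPM rescaled to nuclear coding genes) and 0.23 (TMM-scaled counts), and the other 7 kept their direction in every scaling tried.

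The libraries also differed in how their low counts were spread, which bears on Gimap3, Gimap7 and Gimap9 and on marker genes of low level. Replicate 1 had the higher total count, yet 10462 of its coding genes were without counts, and 8288 in replicate 2. Expected counts above 0 and under 10 were found for 244 coding genes in replicate 1 and 1233 in replicate 2, and counts of 10 to under 100 for 913 and 2790. The part of this in the replicate differences was not tested.

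Some members share sequence with each other or with other genes. Over 28 pairs of members, the coding sequences were aligned locally, and identity was taken over the paired bases with gaps left out. It ran from 71.2% to 94.1%, so likeness over whole coding sequences is lower. The highest was Gimap5 with Gimap3 (94.1% over 860 bases, 95.2% of the shorter sequence). The next highest was 79.9%, Gimap4 with Gimap6, over 62.4% of the shorter sequence. Words of 50 bases were taken from the GENCODE M21 sequences of the transcripts. Gimap5 and Gimap3 had 190 in common, which is 8.08% of those of Gimap5 and 9.9% of those of Gimap3, and no other pair of members shared any. Words in common with any other gene were 12.2% of those of Gimap5, 10.9% of Gimap1, 10.7% of Gimap3, 2.62% of Gimap7 and 0.17% of Gimap6, and Gimap8, Gimap9 and Gimap4 had none. Gimap1 shared 132 words with its antisense gene Gimap1os, and Gimap5 shared 105 with Gm28053. The posterior SD of the count that the authors deposited was 0 reads for all 8 members in replicate 1 and for 7 in replicate 2. The exception was Gimap1 in replicate 2, with 0.44 reads, which shares 149 words with Gm28053, a gene annotated across Gimap7, Gimap1 and Gimap5 that had 0 and 8.23 expected counts. The leading transcript of Gimap3 is 906 bases in the deposited tables and 1968 bases in GENCODE M21, and that of Gimap8 3654 and 3160 bases, so the per-length levels of both depend on the annotation. The word shares of Gimap3 describe the longer model, not the one that was quantified.

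Transcript shares were given for 21 transcripts of the 8 members, of which Gimap8, Gimap7 and Gimap3 have 1 each. Of the 5 members with several, 4 had the same leading transcript in both libraries. Among the 4 of them that were detected in both, which leaves out Gimap9, 3 did, where 51.4% of 7364 coding genes detected in both with several transcripts did. Gimap6-201, a coding transcript of 1594 bases, carried 49.99% of the Gimap6 level in replicate 1 and 39.0% in replicate 2. The long coding form Gimap6-202 (3179 bases) carried 34.6% and 23.7%, the non-coding Gimap6-204 15.4% and 26.4%, and the short Gimap6-203 0% and 10.9%. The even TPM of Gimap6 therefore combines a different transcript mix, with a mean effective length of 1856 bases in replicate 1 and 1433 bases in replicate 2.

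**Figure D3:**
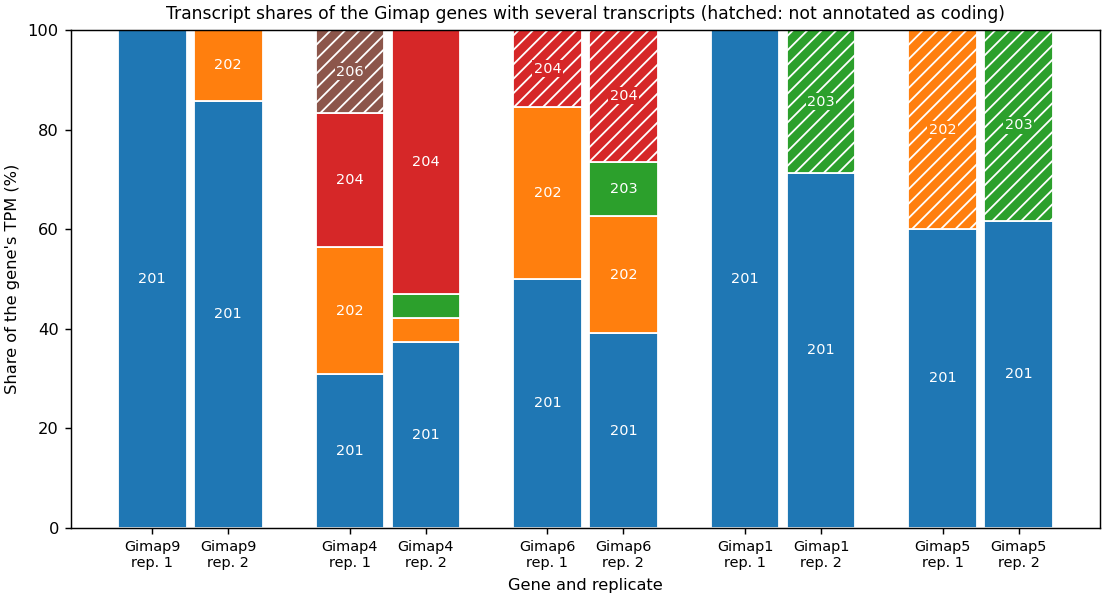
Share of each gene's TPM, in percent, carried by its transcripts in replicate 1 and replicate 2 for the 5 members with several transcripts, with the transcript number in the bar and hatching for transcripts not annotated as protein coding. Gimap5 keeps about the same share of Gimap5-201, while its non-coding part is Gimap5-202 in replicate 1 and Gimap5-203 in replicate 2.

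Gimap5-201, the coding transcript, held 60.03% of Gimap5 in replicate 1 and 61.7% in replicate 2. The rest was assigned to a different processed transcript in each pool, Gimap5-202 with 40.0% in replicate 1 and 0% in replicate 2, and Gimap5-203 with 0% and 38.3%. The authors' posterior intervals did not overlap for either, reaching from 4.33 to 8.80 TPM against at most 0.98 TPM for Gimap5-202, and at most 1.36 TPM against 2.13 to 4.59 TPM for Gimap5-203. Gimap4 spread over Gimap4-201 (30.9%), Gimap4-204 (27.0%), Gimap4-202 (25.4%) and Gimap4-206 (16.6%), a target of nonsense-mediated decay by annotation, in replicate 1. In replicate 2 Gimap4-204 (53.1%) led Gimap4-201 (37.3%) from 49 counts in all, and their posterior intervals overlapped (0.56 to 2.10 and 0.21 to 1.40 TPM). Gimap1-201 carried 100% of Gimap1 in replicate 1 and 71.2% in replicate 2, where the retained-intron form Gimap1-203 had 28.8% from 15.5 expected counts. Gimap9-201 carried 100% and 85.8%, the rest being Gimap9-202 from 10.9 expected counts.

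The nearest coding genes on either side of the cluster included expressed genes and genes without counts. Gimap1os, annotated on the strand opposite Gimap1 and sharing 1107 exon bases with it, had 5.01 TPM and 257 counts in replicate 1, and 2.32 TPM and 67 counts in replicate 2. The sources used here do not say whether the counting used strand, and without it the reads of Gimap1 and Gimap1os cannot be told apart where they overlap. On the Gimap8 side, AI854703 (0 and 0.75 TPM) and Zfp775 (0 and 0.81 TPM) lay within 24.0 kb, Repin1 was at 20.6 and 13.6 TPM, and Rarres2 had no counts. On the Gimap3 side, the membrane protein genes Tmem176b (67.4 and 53.7 TPM) and Tmem176a (16.1 and 19.8 TPM) came next, 63.0 and 70.1 kb away, followed by Aoc1 and 1600015I10Rik without counts. Of these 8 flanking genes, Tmem176b lay closest to Gimap6 in mean, at 60.5 ± 9.64 TPM, above it in replicate 1 and below it in replicate 2.

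RNA of genes whose proteins are reported to work with GIMAPs was detected in both pools. Of 7 listed partners, all 7 were detected in both libraries, where 45.5% of nuclear protein coding genes were. None was over 2-fold apart on the log2(TPM + 1) scale, but Bcl2l1 lay at the cutoff, with a difference of 1. Hspa8, a chaperone found with Gimap5, was at 1809 and 1487 TPM, the survival protein gene Mcl1 at 63.5 and 54.0 TPM, and the kinase gene Gsk3b at 29.6 and 28.1 TPM. The Bcl2 family genes Bcl2 (18.6 and 13.2 TPM), Bax (21.9 and 13.1 TPM) and Bcl2l1 (12.0 and 5.49 TPM) lay near them, with Bcl2 and Bax above both Gimap5 and Gimap1 and Bcl2l1 below both in each library. Gabarapl2, the partner of Gimap6, was at 12.8 and 14.8 TPM, below Gimap6 in both.

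Related GTPase families gave a comparison of level. Among 13 septin genes, 8 passed detection in both pools, with Sept8 highest (70.2 and 83.8 TPM), Sept1 (55.9 and 51.3 TPM), Sept2 (36.6 and 46.9 TPM) and Sept6 (36.5 and 31.2 TPM), and their TPM summed to 283 and 305. Of 18 listed interferon-inducible GTPase genes, 2 were not analysed here, and 12 of the other 16 were detected in both, led by mean TPM by Gvin1 (28.5 and 13.2 TPM), Tgtp1 (36.3 and 5.36 TPM), Ifi47 (19.2 and 17.8 TPM) and Tgtp2 (12.6 and 21.8 TPM). Tgtp1 and Tgtp2 are near-identical copies whose split is uncertain. More than 2-fold higher in replicate 1 were 5 of those 16 and 1 of the 13 septins, against 11.3% of coding genes with a mean of at least 1 TPM. More than 2-fold higher in replicate 2 were 2 of each list, against 9.62%. The list counts and these shares are not over like sets. The lists also hold genes with a mean under 1 TPM (Gbp4, Mx1, Mx2, Sept3, Sept10, Sept12 and Sept14). Mx2, at 0 and 1.32 TPM, was among those called higher in replicate 2. Over all measured genes of a list, also those without counts, the median difference was 0.10 for the interferon-inducible GTPases and -0.10 for the septins. It was 0.95 over the Gimap genes. The septin value is that of Sept3, at 0 and 0.07 TPM, so it is no measure of the expressed septins.

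Markers of the lymphocytes in which GIMAPs are best known were mostly at low level, apart from Nkg7, and many were uneven between the pools. The T cell list had 8 of 14 genes detected in replicate 1 and 3 in replicate 2, and its TPM summed to 36.0 and 18.3. Detection in a single library has no share over coding genes to set beside it, here and for the lists below. Thy1 (9.06 and 2.92 TPM), Trbc1 (8.41 and 1.01 TPM), Trbc2 (5.63 and 0 TPM), Cd3e (3.56 and 0 TPM) and Cd3g (3.18 and 0 TPM) were higher in replicate 1, and Lck (1.19 and 6.95 TPM) and Lat (1.98 and 4.62 TPM) were higher in replicate 2. In all, 7 of the 14 were higher in replicate 1 and 5 in replicate 2, where the Gimap genes had 6 and 2. Cd3d and Cd8a were at 0 in both. The NK and innate lymphoid list had 6 and 5 of 9 detected, with sums of 61.8 and 65.2 TPM. Nkg7 (36.2 and 55.8 TPM) made up most of both sums. Next came Ncr1 (7.04 and 1.74 TPM), Rora (5.63 and 3.10 TPM) and Klrb1c (7.24 and 0.43 TPM), and Gzmb was at 0 in both. Of the 9, 5 were higher in replicate 1. The 3 higher in replicate 2 were Nkg7, Gzma (0 and 1.69 TPM) and Klrd1 (0 and 0.73 TPM). The B cell list had 3 and 8 of 10 detected, with sums of 12.0 and 40.1 TPM, and all 10 were higher in replicate 2. Its highest genes were Cd79a (7.36 and 7.43 TPM), Igll1 (0 and 9.73 TPM), Blnk (2.89 and 5.72 TPM) and Cd79b (0 and 5.83 TPM). Cd79b, Ms4a1, Pax5, Vpreb1, Igll1 and Cd22 were at 0 in replicate 1. Of 21461 nuclear protein coding genes, 10462 were without counts in replicate 1 and 8288 in replicate 2. Among the 10, Cd79a and Cd22 (0 and 0.04 TPM) differed little. The part of these cells in the Gimap differences was not tested.

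**Figure D4:**
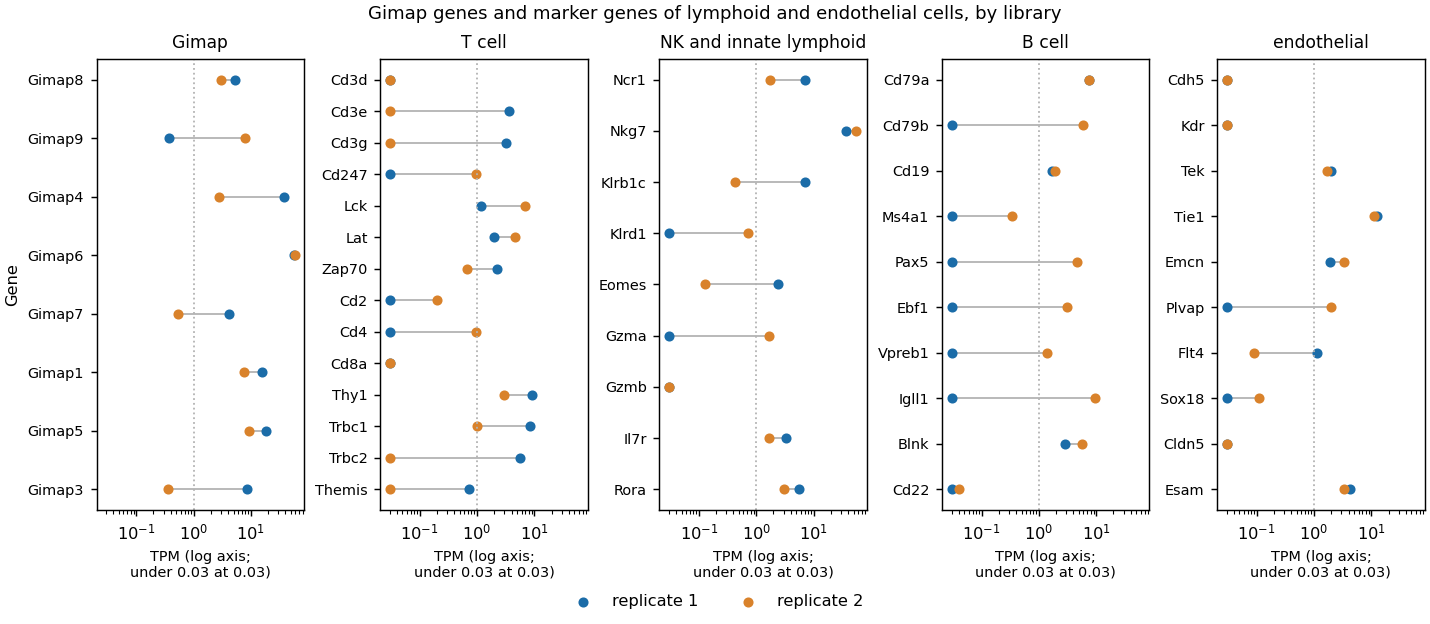
TPM of the Gimap genes and of T cell, NK and innate lymphoid, B cell and endothelial marker genes in replicate 1 and replicate 2, on a log axis where values under 0.03 TPM are drawn at 0.03 and the dotted line marks 1 TPM. Gimap6 lies at 56.9 and 58.2 TPM, near the highest lymphoid marker, Nkg7 at 36.2 and 55.8 TPM, while most other markers lie under 10 TPM.

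Endothelial cells also express GIMAP genes. Their list had 5 of 10 genes detected in each library and summed to 22.0 and 21.7 TPM, most of it from Tie1 (12.8 and 11.2 TPM), Esam (4.29 and 3.33 TPM), Emcn (1.88 and 3.31 TPM) and Tek (1.94 and 1.71 TPM), genes that blood stem cells share. Of the remaining 6, Cdh5, Kdr and Cldn5 were at 0 in both, Plvap was at 0 and 1.99 TPM, Flt4 at 1.12 and 0.09 TPM, and Sox18 at 0 and 0.11 TPM. The neutrophil and monocyte list summed to 11.8 and 355 TPM, with Ngp highest (0.09 and 139.5 TPM), ahead of S100a9 (0.24 and 69.1 TPM), then S100a8 (0 and 45.0 TPM) and Lyz2 (4.61 and 27.8 TPM), with Mmp8 and Ly6g at 0 in both. Of its 12 genes, 8 were higher in replicate 2. The 2 higher in replicate 1 were Csf1r (3.37 and 1.81 TPM) and Ccr2 (2.10 and 1.33 TPM). Of 9 megakaryocyte markers, 3 were higher in replicate 1 and 6 in replicate 2. Gp9 was at 4.25 and 2.91 TPM, Selp at 4.54 and 4.40 TPM, Itga2b at 11.3 and 21.3 TPM, Vwf at 4.88 and 9.54 TPM and Pf4 at 0 and 9.67 TPM. The erythroid list had all 10 genes detected in both pools and summed to 2479 and 2250 TPM, led by Car1 (1333 and 1071 TPM), Car2 (364 and 372 TPM) and the globin genes Hba-a2 (223 and 220.2 TPM) and Hba-a1 (188 and 157 TPM). The part of these cells in the Gimap levels was not tested.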

How the data were processed

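Total RNA was sequenced from 2 pools of 100 mouse hematopoietic stem cells. The authors deposited expected counts, which are estimated reads for each gene and transcript and can be fractional. TPM and FPKM values were deposited by the authors in the same tables, as were the percent of a gene's TPM carried by each transcript, the posterior SD of a count and the posterior interval of a TPM, whose level the sources used here do not give. The build was mm10, per the labels, the annotation GENCODE M4, per a text the authors deposited with the tables, and the tables have RSEM's columns, per the file headers. The sources used here do not give the aligner, versions or strand handling.

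Symbols were matched for 98.0% of 43346 genes, and positions are from GENCODE M21 of the same build. Rows that name no mouse gene were left out. With a single group no test was possible. Detection required 1 TPM or more together with 10 or more expected counts. Differences are log2(TPM + 1), replicate 1 minus replicate 2, and ratios carry 95% exact conditional binomial intervals. These cover counting error of reads only and treat reads as independent. PCR copies were not separated by molecular identifiers, so the intervals may be too narrow even for counting error. Counts rounded to whole numbers were scaled with edgeR 4.0.16 (TMM) and DESeq2 1.42.0 (size factors) in R 4.3.3 as alternatives. Other steps used pandas 2.3.3, numpy 2.4.6, scipy 1.17.1, Biopython 1.88 and matplotlib 3.10.9 under Python 3.11.15, and the difference step was tested on simulated data. The members, lists and motifs were chosen with earlier results of these data known. Named genes are the members, the 4 nearest measured coding genes on each side, the 5 genes nearest to the top member, and the 4 highest genes of each list with its markers at 0. A listed gene is not reported here. Other list members, and Gm28053, were named after their values were seen.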

Additional observations from a re-analysis of the deposited data

How the results depend on the processing

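The count of members detected in both libraries (5) was 4 to 6 with TPM minima of 0.5 and 2, an expected count minimum of 50 or none, and 6 without replicate 1 and 7 without replicate 2. The single-library counts have no share over coding genes to be set against. The summed Gimap level of 119 TPM became 77.1 in FPKM and 414 TPM when TPM was rescaled to nuclear coding genes, a change of unit, and ran from 89.5 to 148 TPM with either library left out. The log2 difference of that sum (0.71) became 0.79 in FPKM and 0.54 with rescaled TPM, and was within its counting interval in the other 4 settings. The scalings moved the median difference of coding genes between -0.06 (rescaled TPM) and 0.17 (FPKM). The members over 2-fold apart numbered 4 or 5 in every setting tried, Gimap1 being the one added, and 7 members, 3 of them with a single transcript, had the same leading transcript in both libraries under both alternatives. The range of a single member was widest for Gimap3 (2.15 to 4.32) and Gimap9 (-4.30 to -2.27), which rest on 5 and 15 counts in their lower library. A difference between 2 libraries has no replicate check, and counts this low limit the ratios of Gimap3, Gimap7 and Gimap9.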
